A study of Mus musculus with 24 samples.

Results

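The fibroblast growth factor (FGF) genes followed here are 6 ligands (Fgf3, Fgf4, Fgf5, Fgf10, Fgf15 and Fgf17) and the 4 receptors that carry a kinase (Fgfr1, Fgfr2, Fgfr3 and Fgfr4). They were chosen by gene name, with earlier results of these data known, and read in all 24 RNA-seq libraries. Counts of called members below are therefore descriptions. They are 10 of the 23095 genes listed for the J1 line and 10 of the 25476 listed for the tet-off lines, and all 10 had the 2 reads in total that testing required in both tables.

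FGF ligands are secreted proteins that bind a receptor tyrosine kinase together with heparan sulfate on the cell surface. The bound receptor signals through Frs2, Grb2 and Sos to Ras, Raf, MEK and ERK, and ERK raises its own inhibitors, among them the Sprouty, Spred and Dusp genes. In mouse embryonic stem cells (ESCs), autocrine Fgf4 acting on Fgfr1 and Fgfr2 drives the exit from the naive state, and in the blastocyst FGF signalling sorts epiblast from primitive endoderm and sustains trophoblast stem cells.

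The study compared ESCs with 2 kinds of expanded potential stem cells (EPSCs), which are ESCs moved to media meant to widen their developmental potential. In the wild-type J1 line, ESCs, D-EPSCs and L-EPSCs were sequenced, with 2 libraries in each group. In 3 further lines, labelled as tet-off knock-ins of Oct4, Sox2 or Nanog and called cKO lines here, ESCs, L-EPSCs and L-EPSCs given doxycycline (Dox) were sequenced, again with 2 libraries in each group. The study describes each of these lines as lacking the endogenous gene and making the factor from a transgene, which Dox represses. Each factor was followed in 1 line, so the line and the factor cannot be told apart. ESCs were kept in serum with leukemia inhibitory factor (LIF), CHIR99021 and PD0325901. L-EPSC medium held knockout serum replacement, LIF, CHIR99021, PD0325901, A-419259, XAV939, JNK inhibitor VIII and SB203580. D-EPSC medium was based on N2B27 with LIF, CHIR99021, dimethindene maleate and minocycline hydrochloride. PD0325901 inhibits MEK, below the FGF receptors, and the labels list it for ESCs and L-EPSCs and not for D-EPSCs. Cell state and medium cannot be told apart in this design.

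Libraries held between 11612919 and 15069899 reads on genes in the J1 table and between 10807631 and 14798984 in the tet-off table. Values are normalized counts, which are reads per gene divided by a size factor for the library, and they are comparable between libraries of 1 table only. The labels do not say whether the 2 libraries of a group came from separate cultures, so p-values measure the spread between libraries only. That spread was pooled over the groups fitted together. The targeted transcript went down with Dox in each cKO line, from a mean of 6368 to 173 for Pou5f1 (which encodes Oct4), from 4833 to 50.1 for Sox2 and from 8983 to 3139 for Nanog. These are transcript levels, and the study reports by western blot that each targeted protein was lost with Dox, Nanog included. The transcripts of the other factors did not stay level. In the Oct4-cKO line Sox2 went from 5481 to 245 and Nanog from 7530 to 708, and in the Sox2-cKO line Pou5f1 went from 8355 to 3182 and Nanog from 7720 to 694. Pluripotency markers were present in every group. The summed normalized counts of 10 of them fell with Dox, from a mean of 46160 to 6089 in the Oct4-cKO line (9 called lower), from 48265 to 10507 in the Sox2-cKO line (10 called lower) and from 49128 to 31587 in the Nanog-cKO line (1 called lower). None was at 0 reads, and the part of this loss in the Dox results below was not tested. The study's methods describe J1 ESCs as grown either on embryonic fibroblast feeder cells or on gelatin. Both EPSC types are described as kept without feeders for several passages before sequencing. Which of these surfaces the sequenced J1 ESCs grew on is not stated. Transcripts used as markers of other cell types were also read in J1, and which cells made them was not tested. There the sum of 10 fibroblast markers was 100476 and 103107 for ESCs, 61724 and 62088 for D-EPSCs, and 20816 and 21391 for L-EPSCs. The sum of 8 macrophage markers was 2561 and 2564, 20038 and 20158, and 15813 and 15888 in the same order. Lyz2 was its largest part, with means of 1076, 15677 and 12992. Of the 8 markers, 8 were called higher in D-EPSCs than in ESCs and 6 in L-EPSCs, with 0 lower. In the tet-off table the fibroblast sum ran from 312 to 810 over 9 markers and the macrophage sum from 186 to 761. The fibroblast markers Col3a1, Postn and Lum were at 0 reads in Oct4-cKO ESCs, and the macrophage markers Adgre1, Ptprc, Tyrobp and Lyz2 were at 0 reads in both libraries of 5 tet-off groups. In bulk RNA, fewer cells of a type and less RNA per cell cannot be told apart.

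A gene was called where limma gave an adjusted p under 0.05 and the log2 difference passed 0.6 (between cell states) or 1 (with Dox). In J1, D-EPSCs had 4 members above and 2 below their ESC level, where 20.7% of all genes tested were called. L-EPSCs had 4 above and 4 below, against 20.3% of all genes. L-EPSCs against D-EPSCs gave 2 above and 4 below, against 13.4%. On conversion of tet-off ESCs to L-EPSCs, 2 members were called higher and 3 lower in the Oct4-cKO line (28.4% of all genes), 1 higher and 3 lower in the Sox2-cKO line (19.6%), and 4 higher and 3 lower in the Nanog-cKO line (26.9%). With Dox, 2 members were called higher and 7 lower in the Oct4-cKO line (19.3% of all genes), 1 higher and 7 lower in the Sox2-cKO line (15.1%), and 0 higher and 2 lower in the Nanog-cKO line (5.39%). The median log2 difference of all genes lay between 0 and 0.01 in these 9 comparisons. Among the Dox calls in the Oct4- and Sox2-cKO lines, Fgf5 (higher) and Fgf17 (lower) lay at or near a floor of 3 reads per library. Fgf5 was the only member called higher in the Sox2-cKO line. In total, edgeR and DESeq2 each called 8 members with Dox in the Oct4-cKO line and 7 in the Sox2-cKO line.

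**Figure D1:**
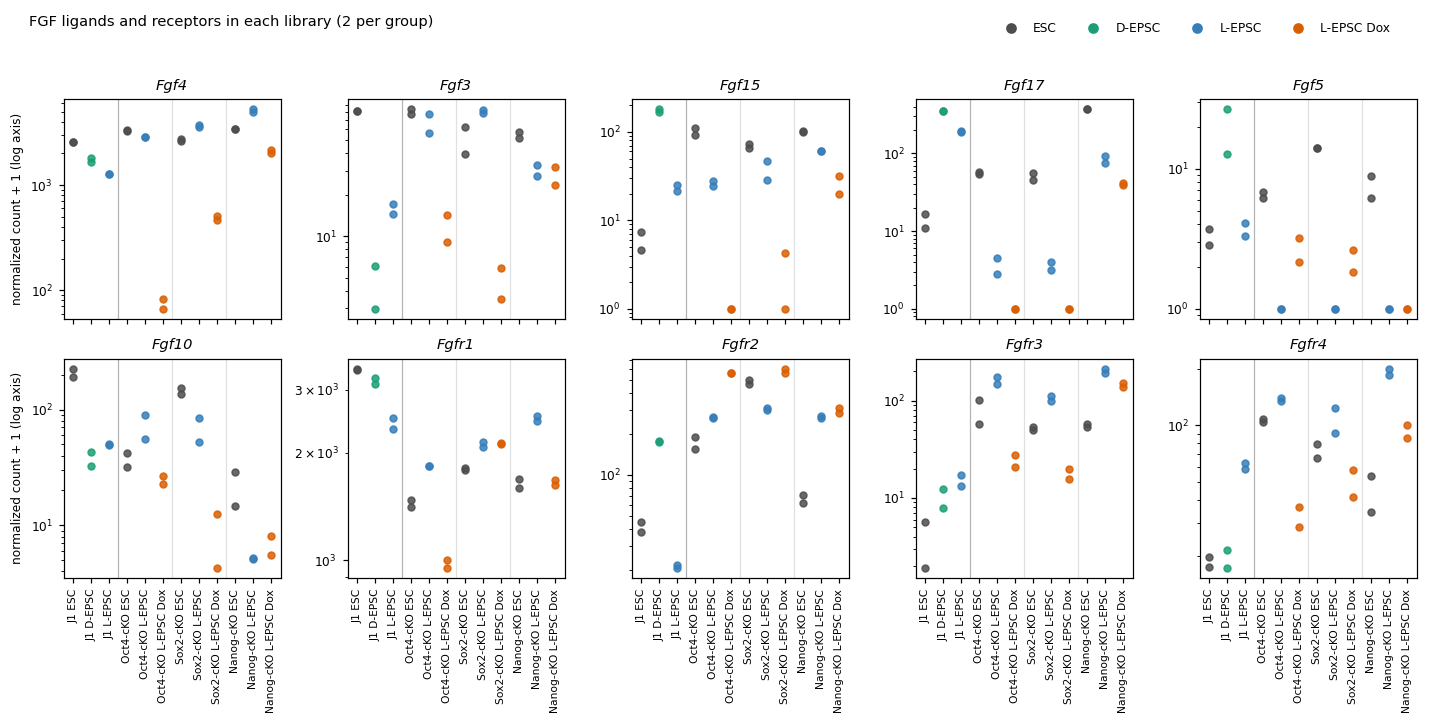
Normalized count plus 1 on a log axis (y) for the 10 members in each library, with the 12 groups on the x axis and 1 dot for each of the 2 libraries of a group. The line after the J1 groups separates the tables, which were normalized separately. Fgf4 lies between 2634 and 5244 in untreated tet-off cells and at 81.8 and 65.5 in Oct4-cKO L-EPSCs with Dox.

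Fgf4 was the main ligand transcript. Per kb of exon, it made up 90.3% ± 0.18 (SD, n = 2) of the summed level of the 6 ligands in J1 ESCs, 64.1% ± 0.36 in D-EPSCs and 74.4% ± 0.04 in L-EPSCs, and between 78.8% and 94.7% in the 6 untreated tet-off groups. The gene (ENSMUSG00000050917) lies on the plus strand of chromosome 7 from 152047291 to 152051148 (NCBIM37), and its exons share no base with another annotated gene. Fgf4 is a textbook target of Oct4 and Sox2, which bind side by side in an enhancer at the end of the gene. A Sox word (CTTTGTT), a gap of 3 bases and an octamer-like word (ATGCTAAT) lie 1452 bases after the stop codon, within the untranslated part of the last exon. These words and the gap were set in advance for this gene, so finding them there is not a test. The same words at that spacing, on either strand, were in 3 of 36723 windows of the same 3858 bases on chromosome 7 (0.00817%). The windows did not leave out the region of Fgf4, and the share is a description only. The site is shown with 6 bases on each side because Fgf4 was, of the 6 ligand members, the one called lower with Dox in all 3 cKO lines. Capitals mark the Sox word and the octamer-like word, on the plus strand of NCBIM37 at chr7:152050293-152050322.
Fgf4 Sox and octamer site: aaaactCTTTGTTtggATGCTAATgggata

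With Dox, Fgf4 fell in all 3 cKO lines. In Oct4-cKO L-EPSCs, normalized counts were 2881 and 2880 without Dox and 81.8 and 65.5 with it. That is 39.1-fold lower in means, a log2 difference of −5.28 (SE 0.07, limma adjusted p = 5.7e-18). In the Sox2-cKO line, the values were 3722 and 3566 without Dox and 507 and 467 with it, 7.48-fold lower (log2 difference −2.90, SE 0.07, limma adjusted p = 1.7e-14). In the Nanog-cKO line, they were 5244 and 4991 without Dox and 2136 and 2034 with it, 2.45-fold lower (log2 difference −1.29, SE 0.07, limma adjusted p = 1.6e-09). Treated and untreated libraries did not overlap in any line. The fall was larger in the Oct4-cKO line than in the Sox2-cKO line (difference of log2 effects −2.38, SE 0.10, limma adjusted p = 7.1e-11), and larger in the Sox2-cKO than in the Nanog-cKO line (−1.61, SE 0.10, limma adjusted p = 3.9e-09). The difference of Dox effects was called for 6.81% of all genes between the Oct4- and Sox2-cKO lines and for 11.3% between the Sox2- and Nanog-cKO lines. As given above, Nanog-cKO cells kept 3139 normalized counts of their targeted transcript, and Sox2 fell in the Oct4-cKO line too. The part of either in the Fgf4 values was not tested.

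Between cell states Fgf4 changed less, and not in 1 direction. J1 ESCs had 2582 and 2578, D-EPSCs 1803 and 1669, and L-EPSCs 1260 and 1268. The groups did not overlap, and L-EPSCs were called lower than ESCs, 2.04-fold (log2 difference −1.03, SE 0.04, limma adjusted p = 1.3e-06). D-EPSCs against ESCs stayed inside the threshold of 0.6 at −0.57 (SE 0.04, limma adjusted p = 3e-05), and passed it, at −0.63, without D-EPSC replicate 1. The tet-off lines stayed inside it too. Oct4-cKO ESCs had 3286 and 3346 against 2881 and 2880 in L-EPSCs, a log2 difference of −0.20 (SE 0.07, limma adjusted p = 0.03). Sox2-cKO cells went from 2729 and 2634 to 3722 and 3566 (0.44, limma adjusted p = 0.00011), and Nanog-cKO cells from 3394 and 3440 to 5244 and 4991 (0.58, limma adjusted p = 4.1e-06). Nanog-cKO cells passed the threshold, at 0.62, with edgeR, with TMM scaling and without L-EPSC replicate 2. The conversion effect was lower in the Oct4-cKO than in the Sox2-cKO line (difference of log2 effects −0.65, SE 0.10, limma adjusted p = 0.0002), where 10.0% of all genes were called. It was also lower than in the Nanog-cKO line (−0.79, SE 0.10, limma adjusted p = 2e-05), where 14.7% were called.

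**Figure D2:**
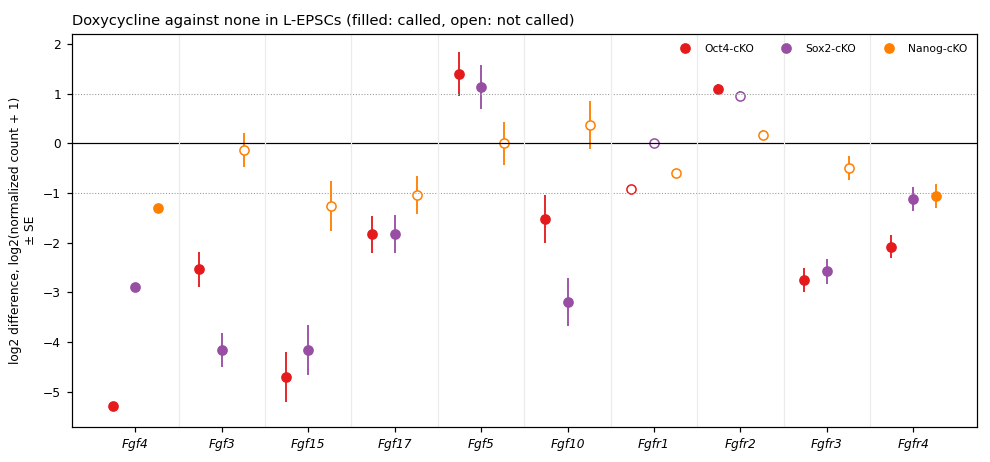
Log2 difference (Dox minus none, on log2(normalized count + 1)) with its SE for the 10 members in L-EPSCs of the 3 cKO lines, 2 libraries in each group. Dotted lines mark the threshold of 1. Fgf4 fell in all 3 lines, by 5.28, 2.90 and 1.29, and Fgfr2 lies above 0 in each line.

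Fgf3 and Fgf15, the neighbours of Fgf4, fell with it in the Oct4- and Sox2-cKO lines. Fgf3 (ENSMUSG00000031074, a ligand of inner ear and tail development) lies on chromosome 7 from 152023988 to 152030341, 16949 bases before Fgf4. Fgf15 (ENSMUSG00000031073, a ligand best known as the ileal hormone that restrains bile acid synthesis) lies from 152082437 to 152086858, 31288 bases after it. All 3 are on the plus strand. Fgf15 shares 478 of its 1809 exonic bases with Gm17685 on the other strand, and the strand setting of the counting is not given in the sources used here. Oct4-cKO L-EPSCs had Fgf3 values of 76.3 and 55.7 without Dox and 8.06 and 13.3 with it (log2 difference −2.54, SE 0.34, limma adjusted p = 1.1e-05). Sox2-cKO L-EPSCs had 77.8 and 81.8 without Dox and 2.47 and 4.91 with it, which are 3 and 6 reads (log2 difference −4.16, SE 0.34, limma adjusted p = 4.4e-08). In Nanog-cKO L-EPSCs the values overlapped, at 32.0 and 26.5 against 30.7 and 22.5 (limma adjusted p = 0.9). The Dox effect on Fgf3 was smaller in the Oct4- than in the Sox2-cKO line (difference of log2 effects 1.62, SE 0.49, limma adjusted p = 0.022). That call was lost with the groups compared alone (limma adjusted p = 0.07) and without 5 of the 8 libraries in turn, with limma adjusted p-values up to 0.094.

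Fgf15 went to 0 reads in both Oct4-cKO libraries with Dox, from 26.6 and 23.4 without it, which is at least 7.37-fold lower against a floor of 3 reads in each library (limma adjusted p = 8.2e-07). Sox2-cKO L-EPSCs had 46.5 and 27.9 without Dox and 0 and 3.27 with it, which are 0 and 4 reads (log2 difference −4.16, SE 0.51, limma adjusted p = 4.1e-06). Nanog-cKO L-EPSCs had 59.6 and 59.1 without Dox and 30.7 and 19.1 with it. The groups did not overlap, and the log2 difference of −1.26 missed the test (SE 0.51, limma adjusted p = 0.087), while edgeR and DESeq2 on the recovered reads passed it (adjusted p = 0.00018 and 0.0011). Against the Nanog-cKO line, the fall of Fgf15 was larger in the Oct4-cKO line (difference of log2 effects −3.44, SE 0.72, limma adjusted p = 0.0011) and in the Sox2-cKO line (−2.91, SE 0.72, limma adjusted p = 0.005). Between the Oct4- and Nanog-cKO lines 14.8% of all genes differed in their Dox effect.

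Of the other 9 genes annotated within 250 kb of Fgf4, the cell cycle gene Ccnd1 fell with Dox in all 3 lines, with log2 differences of −4.998 (Oct4-cKO), −4.28 (Sox2-cKO) and −1.43 (Nanog-cKO) (limma adjusted p = 4.4e-11, 4.9e-10 and 0.00033). Oraov1, between Fgf15 and Ccnd1, was not called, with log2 differences of 0.88, 0.21 and −0.50, and neither was Ano1. The miRNA gene AC161763.1 was called higher in the Oct4-cKO line (log2 difference 1.47, limma adjusted p = 0.0001). Ccnd1 and Oraov1 overlap at their ends on opposite strands. The promoters of Fgf4 and Fgf3 are shown as the neighbours that fell in the same 2 lines, and that of Fgfr2 as the receptor that rose. They are RefSeq sequences of GRCm38.p6, from 250 bases before to 50 after the start, read in the direction of the gene. RefSeq held a promoter for 7 of the 10 members (Fgf3, Fgf4, Fgf5, Fgf10, Fgfr2, Fgfr3 and Fgfr4). Capitals mark GC boxes (GGGCGG on either strand). The octamer (ATGCAAAT), the Sox words ACAAAG and ACAATG, the GC box, the TATA word TATAAA and the Ets word CCGGAA were searched for on both strands, and 1.74%, 28.6%, 35.7%, 13.6% and 14.9% of 32851 promoters of this length hold them. Fgf4 holds 2 GC boxes and none of the others, and Fgf3 and Fgfr2 hold none of the words. GC made up 69.7%, 59.3% and 43.7% of the bases. Among the other members, Fgf5 holds 1 Sox word, 1 GC box, 1 TATA word and 1 Ets word, Fgf10 holds 1 GC box, the promoters of Fgfr3 hold 4 and 2, and Fgfr4 holds 4 GC boxes and 1 Ets word.
Fgf4, chr7:144861136-144861435, plus strand: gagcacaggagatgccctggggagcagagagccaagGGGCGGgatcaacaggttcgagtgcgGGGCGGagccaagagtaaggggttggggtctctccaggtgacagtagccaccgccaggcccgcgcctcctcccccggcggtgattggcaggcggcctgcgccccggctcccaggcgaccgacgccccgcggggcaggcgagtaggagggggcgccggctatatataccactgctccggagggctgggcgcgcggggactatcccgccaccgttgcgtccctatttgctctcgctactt
Fgf3, chr7:144838362-144838661, plus strand: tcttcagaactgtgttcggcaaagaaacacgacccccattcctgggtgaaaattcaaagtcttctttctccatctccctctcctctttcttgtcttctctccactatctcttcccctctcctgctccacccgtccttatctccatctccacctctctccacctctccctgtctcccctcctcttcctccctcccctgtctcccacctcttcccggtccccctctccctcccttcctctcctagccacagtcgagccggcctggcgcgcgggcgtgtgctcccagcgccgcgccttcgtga
Fgfr2, chr7:130266759-130267058, minus strand: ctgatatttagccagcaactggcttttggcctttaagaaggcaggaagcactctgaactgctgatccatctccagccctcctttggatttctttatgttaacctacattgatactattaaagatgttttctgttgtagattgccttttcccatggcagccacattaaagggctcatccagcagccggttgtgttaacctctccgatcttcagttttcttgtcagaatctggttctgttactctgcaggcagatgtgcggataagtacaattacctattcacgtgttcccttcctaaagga

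Between cell states the chromosome 7 neighbours parted. In J1, Fgf3 was highest in ESCs, at 80.9 and 80.2, against 5.11 and 1.96 in D-EPSCs (5 and 2 reads) and 13.4 and 16.1 (13 and 14 reads) in L-EPSCs. The log2 difference from ESCs was −4.26 in D-EPSCs (SE 0.44, limma adjusted p = 0.00016) and −2.38 in L-EPSCs (SE 0.44, limma adjusted p = 0.0035). The call in L-EPSCs was lost without either ESC library (limma adjusted p = 0.067 and 0.068) or L-EPSC replicate 1 (0.057). Fgf15 went the other way. It had 3.59 and 6.46 in ESCs (4 and 7 reads), 179 and 167 in D-EPSCs, and 20.6 and 24.1 in L-EPSCs. D-EPSCs were 34.4-fold above ESCs (log2 difference 4.89, SE 0.34, limma adjusted p = 1.7e-05) and L-EPSCs 4.45-fold (1.99, SE 0.34, limma adjusted p = 0.0022). No 2 groups overlapped for either gene.

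In the tet-off lines Fgf15 was lower in L-EPSCs than in ESCs. The call was made in the Oct4-cKO line, where values went from 92.0 and 110 to 26.6 and 23.4 (4.05-fold lower, log2 difference −1.97, SE 0.51, limma adjusted p = 0.0042), and it was lost with a pseudocount of 0.1 (limma adjusted p = 0.15). The Sox2- and Nanog-cKO lines had log2 differences of −0.89 and −0.75 (limma adjusted p = 0.2 and 0.27), and both were called with edgeR (adjusted p = 0.0041 and 0.0054) and DESeq2 (adjusted p = 0.012 and 0.016). Fgf3 was called in none of the 3 lines, with log2 differences of −0.28, 0.71 and −0.85. Its conversion effect was higher in the Sox2- than in the Nanog-cKO line (difference of log2 effects 1.57, SE 0.49, limma adjusted p = 0.026), a difference called for 14.8% of all genes, and lost without any of 5 of the 8 libraries (limma adjusted p from 0.059 to 0.11).

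Fgf17 and Fgf5 are ligands of the gastrulating embryo. Fgf17 belongs to the Fgf8 subfamily, and Fgf5 marks the epiblast that has left the naive state. Fgf17 (ENSMUSG00000022101, chromosome 14 from 71036012 to 71042075, minus strand) had 9.88 and 15.7 in J1 ESCs, 353 and 349 in D-EPSCs, and 192 and 188 in L-EPSCs. It was 27.5-fold higher in D-EPSCs than in ESCs (log2 difference 4.71, SE 0.21, limma adjusted p = 1.8e-06) and 14.9-fold higher in L-EPSCs (3.83, SE 0.21, limma adjusted p = 5.3e-06). L-EPSCs were below D-EPSCs (log2 difference −0.88, SE 0.21, limma adjusted p = 0.016), and this call was lost without any of the 4 libraries (limma adjusted p from 0.14 to 0.16). The 3 groups did not overlap.

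The tet-off lines went the opposite way, a difference between tables that was not tested. Fgf17 had 57.5 and 54.1 in Oct4-cKO ESCs and 3.55 and 1.80 in L-EPSCs, which are 4 and 2 reads (log2 difference −3.99, SE 0.38, limma adjusted p = 1.8e-07). Sox2-cKO ESCs had 44.4 and 54.6, and the L-EPSCs had 2 and 3 reads (limma adjusted p = 5.4e-07). Nanog-cKO cells had the highest values, 369 and 368 before conversion and 73.5 and 91.8 after it, 4.46-fold lower (log2 difference −2.15, SE 0.38, limma adjusted p = 0.00018). The fall was larger than in the Nanog-cKO line in both the Oct4-cKO line (difference of log2 effects −1.84, SE 0.54, limma adjusted p = 0.018) and the Sox2-cKO line (−1.67, SE 0.54, limma adjusted p = 0.03). The first of these calls was lost without Nanog-cKO L-EPSC replicate 2 (limma adjusted p = 0.055), and the second without any of 5 of the 8 libraries (0.056 to 0.084). With Dox, Fgf17 was at 0 reads in both libraries of the Oct4- and Sox2-cKO lines. The untreated values there are near the floor of 3 reads, so no fold is given. Nanog-cKO L-EPSCs fell from 73.5 and 91.8 to 38.6 and 40.5 without overlap, a log2 difference of −1.04 that missed the test (SE 0.38, limma adjusted p = 0.059) and passed it with edgeR (adjusted p = 8.7e-05) and DESeq2 (0.00043).

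Fgf5 (ENSMUSG00000029337, chromosome 5 from 98683203 to 98706049, plus strand) was low throughout. In J1, D-EPSCs had 25.5 and 11.7 (25 and 12 reads), against 3 and 2 reads in ESCs and the same in L-EPSCs. D-EPSCs were called higher than ESCs (limma adjusted p = 0.0085), and the call was lost without either ESC library (0.059 and 0.08). In the tet-off lines, ESCs had 5 and 6 reads (Oct4-cKO), 13 and 15 (Sox2-cKO), and 5 and 7 (Nanog-cKO), and all 6 untreated L-EPSC libraries had 0 reads. Against the floor of 3 reads, L-EPSCs were at least 2.06-, 4.19- and 2.09-fold lower (limma adjusted p = 6.9e-05, 2.6e-06 and 3.6e-05). With Dox, Oct4- and Sox2-cKO cells had 1 and 2 reads each and Nanog-cKO cells 0. The first 2 were called higher by limma (adjusted p = 0.015 and 0.049), but both groups lie at or under the floor, and neither call was made with edgeR (0.16 and 0.27) or DESeq2 (0.15 and 0.27).

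Fgf10 (ENSMUSG00000021732, chromosome 13 from 119458598 to 119580922, plus strand) is made by mesenchyme and signals to the Fgfr2 of neighbouring epithelia in lung and limb. In J1 it had 225 and 192 in ESCs, 41.9 and 31.3 in D-EPSCs, and 49.3 and 48.3 in L-EPSCs. D-EPSCs were 5.69-fold below ESCs (log2 difference −2.49, SE 0.21, limma adjusted p = 4.9e-05) and L-EPSCs 4.27-fold (−2.07, SE 0.21, limma adjusted p = 0.00013). The groups did not overlap. The fibroblast marker sum was highest in J1 ESCs too, at 101791 on average against 61906 in D-EPSCs and 21104 in L-EPSCs, with all 10 markers above 0. The markers did not move together in D-EPSCs. There 2 (Dcn and Thy1) were called higher than in ESCs and 4 (Col1a1, Col5a2, Postn and Col1a2) lower. In L-EPSCs 0 were called higher and 8 lower. The part of the fibroblast sum in the Fgf10 values was not tested.

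In the tet-off lines the fibroblast sum was 810 or below, and its part was not tested there either. Sox2-cKO cells had 153 and 134 in ESCs, 51.9 and 82.8 in L-EPSCs, and 11.5 and 3.27 with Dox (14 and 4 reads). The Dox effect was called (9.09-fold lower, log2 difference −3.18, SE 0.48, limma adjusted p = 4.5e-05), and the conversion effect of −1.12 missed the test (limma adjusted p = 0.085) but passed it with edgeR (adjusted p = 6.2e-06) and DESeq2 (0.0024). Oct4-cKO cells had 40.8 and 30.9 in ESCs, 55.0 and 88.9 in L-EPSCs, and 21.9 and 25.5 with Dox. Their conversion effect of 0.96 missed the test (limma adjusted p = 0.13) and passed it with edgeR (adjusted p = 0.00024) and DESeq2 (0.0095). The fall with Dox was 3.04-fold (log2 difference −1.53, SE 0.48, limma adjusted p = 0.017), and it was lost without either Dox library (0.09 and 0.055) or L-EPSC replicate 2 (0.15). Nanog-cKO cells had 13.6 and 28.0 in ESCs, 4.26 and 4.08 in L-EPSCs (4 reads each), and 8 and 4 reads with Dox. Their conversion effect was called (log2 difference −1.99, SE 0.48, limma adjusted p = 0.0028), and lost without ESC replicate 2 (0.056). The Dox effects in the Sox2- and Nanog-cKO lines differed (difference of log2 effects −3.55, SE 0.68, limma adjusted p = 0.0007). Fgf10 shares 123 of its 4601 exonic bases with Gm16263 on the other strand.

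**Figure D3:**
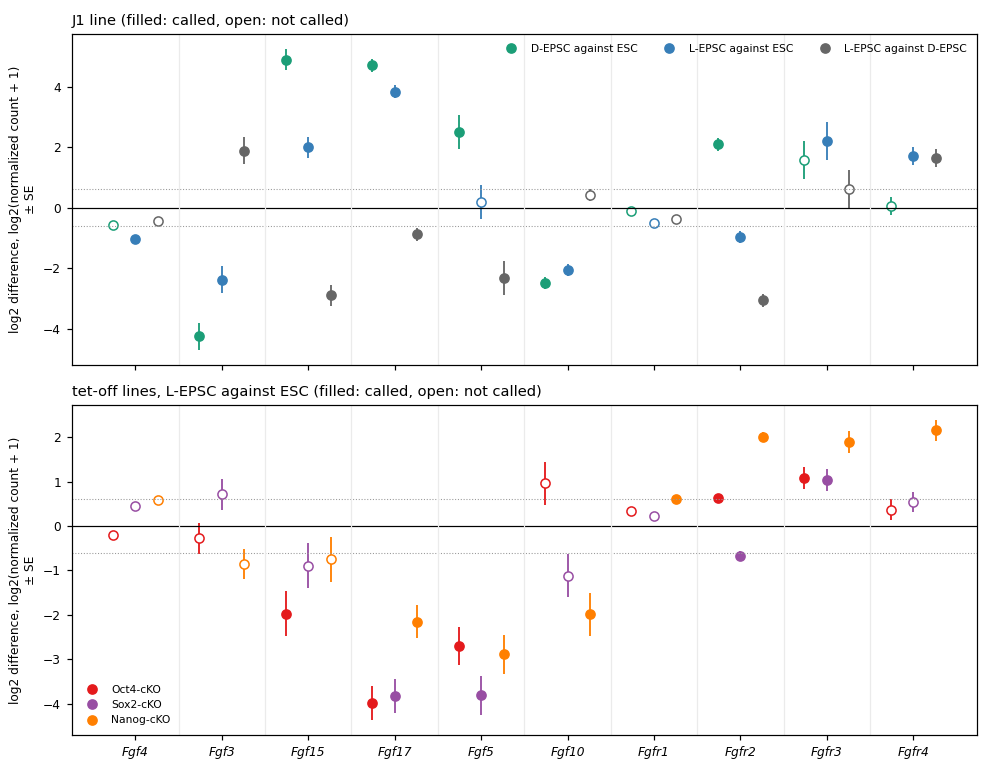
Log2 differences with SE for the 10 members between cell states on log2(normalized count + 1), in J1 (above) and from ESC to L-EPSC in the cKO lines (below), 2 libraries in each group. Dotted lines mark the threshold of 0.6. Fgf15 and Fgf17 lie above 0 in both J1 EPSC states and below 0 in the 3 cKO lines.

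The remaining FGF ligand genes were mostly near the limit of detection, and 11 of the 15 tested had a mean under 10, in J1 and in the tet-off lines alike. In J1, D-EPSCs had 4 called above and 2 below ESCs, and L-EPSCs 2 above and 2 below. On conversion, 1, 0 and 4 were called higher and 1, 2 and 3 lower in the Oct4-, Sox2- and Nanog-cKO lines. With Dox, 0, 1 and 1 were called higher and 4, 3 and 3 lower. The median log2 difference, taking each gene under 3 reads at its bound, was 0 in all 9 comparisons. From 8 to 11 of the 15 genes were at this floor in each comparison, so that median says little about a shift. Without the bounds the medians ran from −0.85 (Dox, Oct4-cKO line) to 0.26 (conversion, Sox2-cKO line). Of all genes tested, 20.7% and 20.3% were called in J1 D-EPSCs and L-EPSCs against ESCs. In the order of lines above, the shares were 28.4%, 19.6% and 26.9% on conversion and 19.3%, 15.1% and 5.39% with Dox. Fgf1 and Fgf8 are named after their values were seen. Fgf1, which binds all the kinase receptors, had 175 ± 6.1 (SD, n = 2) in J1 D-EPSCs, 8.71 ± 0.69 in L-EPSCs and 0.91 ± 0.02 in ESCs. Fgf8, which acts in gastrulation, was low in J1 and had 56.8 ± 4.0 in Nanog-cKO L-EPSCs against 8.22 ± 4.2 in the ESCs and 15.3 ± 0.57 with Dox. It was called lower with Dox in all 3 lines, from 13.8 to 0.58 (Oct4-cKO), 19.9 to 2.46 (Sox2-cKO) and 56.8 to 15.3 (Nanog-cKO), with limma adjusted p = 0.00019, 0.0013 and 0.026.

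Fgfr1, the receptor through which ESCs respond to Fgf4, was the main receptor transcript in every group. Per kb of exon, it made up 97.6% ± 0.14 (SD, n = 2) of the 4 receptors in J1 ESCs, 93.1% ± 0.01 in D-EPSCs and 93.3% ± 0.03 in L-EPSCs. In the untreated tet-off groups its share ran from 70.4% in Oct4-cKO L-EPSCs to 87.8% in Nanog-cKO ESCs. With Dox it was 58.8% ± 1.5 in Oct4-cKO, 74.2% ± 0.13 in Sox2-cKO and 70.7% ± 0.42 in Nanog-cKO L-EPSCs. The gene (ENSMUSG00000031565, chromosome 8 from 26624126 to 26686186, plus strand) shares 886 of its 8061 exonic bases with other annotated entries. Those overlapping it are another entry named Fgfr1 on the same strand and Gm16159 on the other strand.

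As a level, Fgfr1 had 3436 and 3398 normalized counts in J1 ESCs, 3108 and 3228 in D-EPSCs, and 2332 and 2507 in L-EPSCs. The groups did not overlap, and L-EPSCs were below ESCs (log2 difference −0.50, SE 0.04, limma adjusted p = 4.2e-05), inside the threshold of 0.6. D-EPSCs differed from ESCs by −0.11 (limma adjusted p = 0.07). The fibroblast sum falls in the same order, and fibroblasts express Fgfr1. As given above, the single markers went in both directions in D-EPSCs against ESCs, with 2 called higher and 4 lower. The part of fibroblasts in the Fgfr1 values was not tested. In the tet-off lines conversion raised Fgfr1 by 0.35 (Oct4-cKO), 0.23 (Sox2-cKO) and 0.60 (Nanog-cKO) on the log2 scale, with limma adjusted p = 2.2e-06, 0.00025 and 3.3e-09. Only the last passed the threshold, at 0.60003, and it was inside it without Nanog-cKO ESC replicate 1 (0.56) or L-EPSC replicate 1 (0.58).

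Dox lowered Fgfr1 in the Oct4-cKO line from 1832 and 1833 to 1000 and 949, and in the Nanog-cKO line from 2525 and 2450 to 1624 and 1679. The log2 differences were −0.91 and −0.59 (SE 0.04 each, limma adjusted p = 1.5e-11 and 2e-08), both inside the threshold of 1. In the Sox2-cKO line the values overlapped, at 2148 and 2077 without Dox and 2125 and 2108 with it (log2 difference 0.003, SE 0.04, limma adjusted p = 1). The Dox effects in the Oct4- and Sox2-cKO lines differed by −0.91 (SE 0.06, limma adjusted p = 6.5e-09), and those in the Sox2- and Nanog-cKO lines by 0.59 (SE 0.06, limma adjusted p = 6.3e-07). Both stayed inside the threshold of 1.

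**Figure D4:**
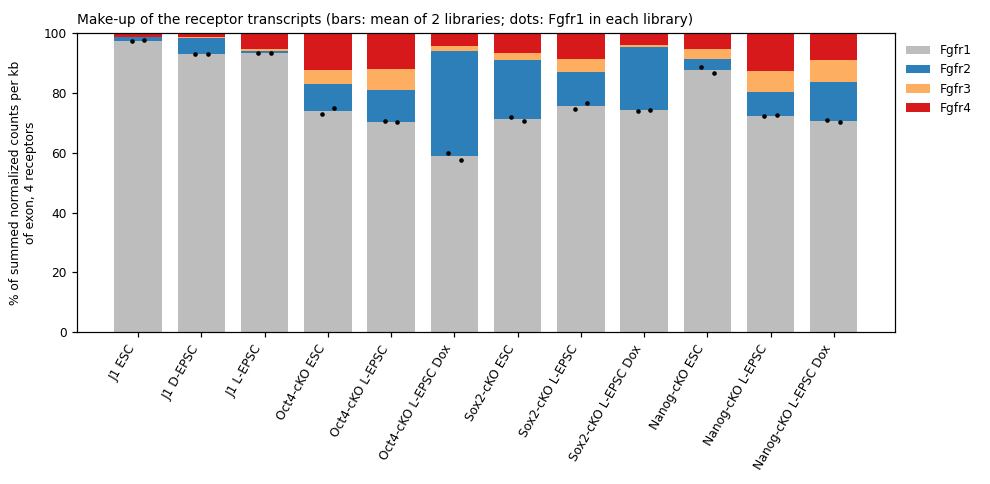
Share of each receptor in the summed normalized counts per kb of exon of the 4 receptors (y, in %), for the 12 groups. Bars are means of 2 libraries and dots are the Fgfr1 share in each library. Fgfr1 holds 97.6% in J1 ESCs and 58.8% in Oct4-cKO L-EPSCs with Dox, where Fgfr2 holds 35.2%.

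Fgfr2, the receptor best known from trophoblast and from epithelia that receive Fgf10, rose when Oct4 or Sox2 was shut off. Oct4-cKO L-EPSCs had 268 and 261 without Dox and 564 and 563 with it, 2.13-fold higher (log2 difference 1.09, SE 0.10, limma adjusted p = 1.2e-07). Sox2-cKO L-EPSCs had 309 and 298 without Dox and 606 and 563 with it, 1.93-fold higher, and the log2 difference of 0.94 (SE 0.10, limma adjusted p = 8.6e-07) fell just inside the threshold of 1. Nanog-cKO L-EPSCs had 260 and 271 without Dox and 285 and 308 with it, a log2 difference of 0.16 (limma adjusted p = 0.31). Treated and untreated libraries did not overlap in any line. The Dox effect was larger than in the Nanog-cKO line in the Oct4-cKO line (difference of log2 effects 0.93, SE 0.14, limma adjusted p = 6.4e-05) and in the Sox2-cKO line (0.78, SE 0.14, limma adjusted p = 0.0004), and both stayed inside the threshold of 1. Per kb, the share of Fgfr2 among the receptors went from 10.5% to 35.2% in the Oct4-cKO line, from 11.3% to 21.2% in the Sox2-cKO line and from 8.0% to 13.1% in the Nanog-cKO line. The sum of 10 trophoblast markers rose with Dox too. It went from 4646 and 4509 to 29640 and 29314 in the Oct4-cKO line and from 2030 and 2071 to 12327 and 12365 in the Sox2-cKO line. There 7 and 8 markers were called higher and 0 lower, against 19.3% and 15.1% of all genes, and none was at 0 reads. Krt8 (12180 and 5342) and Krt18 (11452 and 4420) were the largest parts with Dox. Not called were Hand1, at −0.47 and −0.77, and Eomes, at 0.94 and −0.78. In the Nanog-cKO line the sum went from 699 and 628 to 1036 and 1023, with 1 marker called higher and 0 lower (5.39% of all genes). The part of such cells in the Fgfr2 values was not tested.

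Between cell states Fgfr2 had no common direction. J1 had 44.0 and 36.9 in ESCs, 174 and 178 in D-EPSCs, and 20.6 and 19.5 in L-EPSCs. D-EPSCs were 4.35-fold above ESCs (log2 difference 2.10, SE 0.21, limma adjusted p = 0.00014) and L-EPSCs 2.02-fold below (−0.97, SE 0.21, limma adjusted p = 0.0077), without overlap. In the order ESCs, D-EPSCs and L-EPSCs, the trophoblast sum averaged 1519, 197 and 809. Against ESCs, 0 of its markers were called higher and 5 lower in D-EPSCs, and 3 higher and 3 lower in L-EPSCs. The sum of 8 primitive endoderm markers averaged 410, 1588 and 1003. Of these 8, 4 were called higher than in ESCs in D-EPSCs and 5 in L-EPSCs, with 0 lower. Of all genes tested, 20.7% and 20.3% were called. Pdgfra (869) and Dab2 (662) were the largest parts of the sum in D-EPSCs, where Sox17 and Foxa2 were at 0 reads. L-EPSCs against D-EPSCs had 3 of the 8 called higher and 1 lower (13.4% of all genes). The part of either in the J1 values was not tested. Oct4-cKO cells went from 190 and 154 in ESCs to 268 and 261 in L-EPSCs (log2 difference 0.63, SE 0.10, limma adjusted p = 6.4e-05), which was inside the threshold without ESC replicate 2 (0.47). Sox2-cKO cells went down from 466 and 504 to 309 and 298 (−0.67, SE 0.10, limma adjusted p = 4.6e-05), and Nanog-cKO cells went up from 60.6 and 69.5 to 260 and 271 (2.02, SE 0.10, limma adjusted p = 6.7e-11). The conversion effects of all 3 pairs of lines differed, by 1.30 (Oct4- minus Sox2-cKO), −1.39 (Oct4- minus Nanog-cKO) and −2.69 (Sox2- minus Nanog-cKO), with limma adjusted p = 5.1e-06, 1.6e-06 and 1.3e-09. The trophoblast sum averaged 1874 in ESCs and 4578 in L-EPSCs of the Oct4-cKO line, 5762 and 2050 in the Sox2-cKO line, and 667 and 663 in the Nanog-cKO line. Its single markers moved in the Nanog-cKO line too. In the same order of lines, 5, 0 and 4 of the 10 were called higher and 0, 4 and 1 lower. Of all genes tested, 28.4%, 19.6% and 26.9% were called. The part of the trophoblast markers here was not tested. After conversion the untreated L-EPSCs of the 3 lines lay between 260 and 309, while their ESCs lay between 60.6 and 504. The annotated gene (ENSMUSG00000030849, chromosome 7 from 137305965 to 140315033, minus strand) spans other genes, and 314 of its 7796 exonic bases are shared with them.

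Fgfr3 was higher in L-EPSCs of every line and lower with Dox in the Oct4- and Sox2-cKO lines, and Fgfr4 was lower with Dox in all 3 lines. Fgfr3 (ENSMUSG00000054252, chromosome 5 from 34064373 to 34079716, plus strand) restrains growth of cartilage, and Fgfr4 (ENSMUSG00000005320, chromosome 13 from 55254001 to 55270120, plus strand) is the liver receptor for Fgf15. Neither shares exonic bases with another gene. In the tet-off lines, Fgfr3 had 100 and 56.1 in Oct4-cKO ESCs against 146 and 175 in L-EPSCs, 52.5 and 48.6 against 111 and 98.8 in the Sox2-cKO line, and 52.3 and 56.1 against 213 and 194 in the Nanog-cKO line. The log2 differences were 1.08, 1.04 and 1.89 (SE 0.24 each, limma adjusted p = 0.0015, 0.0028 and 6.9e-06), and no groups overlapped. Fgfr4 rose in the Nanog-cKO line from 33.5 and 52.7 to 199 and 184, 4.44-fold (log2 difference 2.16, SE 0.23, limma adjusted p = 9.7e-07). The Oct4- and Sox2-cKO lines had Fgfr4 differences of 0.37 and 0.54 that missed the test (limma adjusted p = 0.24 and 0.087). The Fgfr4 effect was smaller than in the Nanog-cKO line in both the Oct4-cKO line (difference of log2 effects −1.79, SE 0.33, limma adjusted p = 0.00064) and the Sox2-cKO line (−1.62, SE 0.33, limma adjusted p = 0.0015).

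With Dox, Fgfr3 went to 19.6 and 26.6 in the Oct4-cKO line and to 19.0 and 14.7 in the Sox2-cKO line, 6.96- and 6.23-fold lower (log2 differences −2.76 and −2.58, SE 0.24 each, limma adjusted p = 7.6e-08 and 2.2e-07). In the Nanog-cKO line it had 150 and 138 with Dox, a difference of −0.49 that missed the test (limma adjusted p = 0.18). The Dox effects in the Oct4- and Sox2-cKO lines differed from that in the Nanog-cKO line by −2.26 and −2.09 (SE 0.34 each, limma adjusted p = 6.3e-05 and 0.00017). Fgfr4 was lower in all 3 lines. It went from 138 and 133 to 27.6 and 35.5 (Oct4-cKO), from 123 and 89.8 to 40.4 and 56.4 (Sox2-cKO), and from 199 and 184 to 84.3 and 98.9 (Nanog-cKO). The log2 differences were −2.08, −1.12 and −1.06 (SE 0.23 each, limma adjusted p = 1.4e-06, 0.00095 and 0.003), with no overlap between groups. The Sox2-cKO difference was inside the threshold of 1 without replicate 1 of either group (−0.89 and −0.90), and so was the Nanog-cKO one (−0.94 and −0.999, limma adjusted p = 0.037 and 0.032). In J1 both receptors were low. Fgfr4 had 18.9 and 16.6 in ESCs, 16.3 and 20.6 in D-EPSCs, and 57.6 and 62.1 in L-EPSCs, 3.37-fold above ESCs (log2 difference 1.70, SE 0.30, limma adjusted p = 0.0026). Fgfr3 had 1 and 5 reads in ESCs, 11 and 7 in D-EPSCs, and 12 and 14 in L-EPSCs. The call of L-EPSCs against ESCs (log2 difference 2.21, SE 0.63, limma adjusted p = 0.025) was lost without ESC replicate 1 or either L-EPSC library (0.12 to 0.16).

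Some of the surface partners of the receptors were called. Of 20 co-receptor and heparan sulfate genes, J1 D-EPSCs had 3 called above and 5 below ESCs, and L-EPSCs 1 above and 6 below, with median log2 differences of −0.15 and −0.24. L-EPSCs against D-EPSCs gave 0 above and 6 below. On conversion, 3, 2 and 2 were called higher and 3, 3 and 6 lower in the Oct4-, Sox2- and Nanog-cKO lines, with medians of 0.14, 0.09 and −0.52. The last of these was −0.02 with the genes under 3 reads at their bounds. With Dox, 0, 1 and 1 were called higher and 6, 3 and 1 lower, with medians of −0.50, 0.06 and 0.001. Of all genes tested, 20.7%, 20.3% and 13.4% were called in the J1 comparisons, in the order given. The shares were 28.4%, 19.6% and 26.9% on conversion and 19.3%, 15.1% and 5.39% with Dox. Sulf1, an enzyme that removes 6-O-sulfate from heparan sulfate, went from 365 ± 15 to 83.5 ± 5.0 (SD, n = 2) on conversion in the Oct4-cKO line, from 552 ± 40 to 73.9 ± 8.3 in the Sox2-cKO line and from 250 ± 13 to 68.4 ± 7.3 in the Nanog-cKO line. With Dox it was lower again in the first 2 lines (log2 differences −2.15 and −1.23, limma adjusted p = 1.4e-08 and 1.4e-05), and it rose in the Nanog-cKO line (1.05, limma adjusted p = 0.00016). Sdc4, a syndecan that carries heparan sulfate, rose on conversion in all 3 lines, by 1.82, 0.84 and 0.77 on the log2 scale (limma adjusted p = 4.1e-15, 9.3e-11 and 1.2e-10). Gpc4, a glypican, fell on conversion, with log2 differences of −0.65, −0.68 and −2.18 (limma adjusted p = 0.00041, 0.00036 and 3.8e-10). It was lower than in ESCs in both J1 EPSC states (−1.08 and −1.53, limma adjusted p = 0.00026 and 3.8e-05).

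The relay from receptor to ERK changed mostly by less than the fold threshold. Of its 19 genes, 2 were called in J1 D-EPSCs against ESCs, both higher, and 1 in L-EPSCs, which was lower. Between the EPSC states limma called 0, where 8 had an unadjusted p and 7 an adjusted p under 0.05. In the first 2 of these comparisons 14 and 12 genes had an adjusted p under 0.05, most of them inside the fold threshold. On conversion, 3, 1 and 4 were called higher and 0, 1 and 0 lower in the Oct4-, Sox2- and Nanog-cKO lines, with medians of 0.15, 0.04 and 0.44. With Dox, 0, 1 and 0 were higher and 2, 0 and 0 lower. In the Nanog-cKO line, where limma called none with Dox, 11 had an unadjusted p and 9 an adjusted p under 0.05. Of all genes tested, 20.7%, 20.3% and 13.4% were called in the J1 comparisons, in the order given. The shares were 28.4%, 19.6% and 26.9% on conversion and 19.3%, 15.1% and 5.39% with Dox. The Dox calls were Plcg1, a phospholipase bound by the receptor, at −1.25, and the adaptor Frs3, at −1.67, in the Oct4-cKO line (limma adjusted p = 1.3e-11 and 1.9e-09), and the adaptor Frs2 in the Sox2-cKO line, which rose from 1072 ± 0.90 to 2379 ± 105 (SD, n = 2, log2 difference 1.15, limma adjusted p = 6e-10). The exchange factor Sos2 rose on conversion by 1.21 in the Oct4-cKO line and by 0.93 in the Sox2-cKO line (limma adjusted p = 2.1e-06 and 5.4e-05), and was lower in J1 L-EPSCs (−0.64, limma adjusted p = 0.0016).

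Feedback and target genes of the pathway had opposite directions in J1 and the tet-off lines. Of 15 genes, J1 D-EPSCs had 10 called above ESCs and L-EPSCs 12, with 0 below, at medians of 1.23 and 1.67 on the log2 scale against 0.01 and 0 for all genes. Between the EPSC states, 5 were higher in L-EPSCs. On conversion of the tet-off lines, 12, 12 and 11 were called lower and 0, 0 and 1 higher, at medians of −2.01, −1.69 and −2.16. The gene that rose in the Nanog-cKO line was Dusp5, named after its value was seen. With Dox, 10 fell in the Oct4-cKO line, 9 in the Sox2-cKO line and 1 in the Nanog-cKO line, with 0 higher, at medians of −2.51, −1.68 and −0.17. These genes answer to other routes into ERK as well as to FGF. Of all genes tested, 20.7%, 20.3% and 13.4% were called in the J1 comparisons, in the order given. The shares were 28.4%, 19.6% and 26.9% on conversion and 19.3%, 15.1% and 5.39% with Dox.

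Spry4, a Sprouty inhibitor of receptor signalling, had 97.9 ± 5.0 (SD, n = 2) in J1 ESCs, 1731 ± 98 in D-EPSCs and 2902 ± 41 in L-EPSCs. In the Oct4-cKO line it had 2144 ± 40 in ESCs and 24.5 ± 2.9 in L-EPSCs, and in the Nanog-cKO line 3034 ± 24 and 29.5 ± 13. The log2 differences were 4.88 in J1 L-EPSCs, −6.40 in the Oct4-cKO line, −4.74 in the Sox2-cKO line and −6.71 in the Nanog-cKO line (limma adjusted p = 4.1e-09, 2e-12, 1.8e-10 and 1.3e-12). Dusp6, the phosphatase of ERK, followed with 77.0 ± 4.6 in J1 ESCs, 752 ± 15 in D-EPSCs and 1189 ± 30 in L-EPSCs, and with 719 ± 31 and 71.9 ± 11 in Oct4-cKO ESCs and L-EPSCs. The factor Etv4 was called lower with Dox in all 3 lines, with log2 differences of −4.69, −4.35 and −2.75 (limma adjusted p = 9.6e-10, 3.6e-09 and 2.7e-06). The immediate-early gene Egr1 was called in all 3 conversions, at −2.71, −2.74 and −1.24 (limma adjusted p = 3.1e-08, 5.3e-08 and 0.00021), and with Dox in none, at 0.23, −0.08 and −0.12 (limma adjusted p = 0.45, 0.88 and 0.81). The J1 and tet-off tables were normalized separately and the difference between them was not tested. The J1 ESCs and L-EPSCs and the tet-off ESCs and L-EPSCs carry the same media labels, so the labels do not show a difference in medium between the tables. Whether the media in use matched these labels in both tables is not known, and its part in the opposite directions was not tested.

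**Figure D5:**
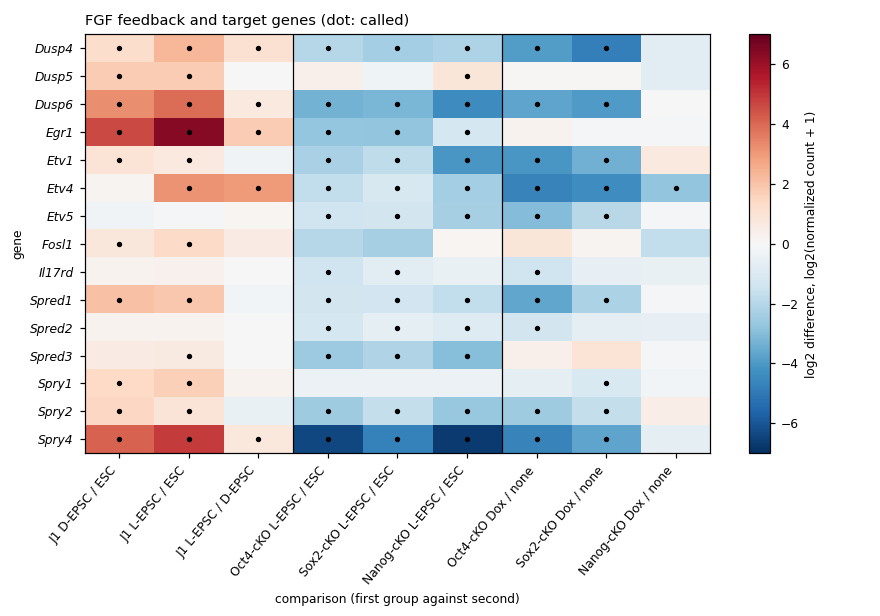
Log2 difference on log2(normalized count + 1), as colour, for 15 FGF feedback and target genes (rows) in 9 comparisons (columns), with 2 libraries in each group. Black dots mark called genes. The J1 columns hold called genes above 0 and no called gene below 0, and the ESC to L-EPSC columns of the cKO lines hold 12, 12 and 11 called genes below 0.

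The genes most like the abundant members were found by the mean absolute difference of their centred log2 group means over the 9 tet-off groups, among 9925 genes with a mean of at least 100. For Fgf4 they were Ndrg2 (0.21), Foxh1 (0.28) and Arhgef40 (0.32), where Fgf4 itself deviates from its own mean by 1.41. For Fgfr1 they were Kifc2 (0.10), E2f1 (0.11) and Lss (0.11), against a deviation of 0.28. For Fgfr2 they were Slc15a2 (0.18), Iqsec1 (0.28) and Cacnb3 (0.31), against 0.67. These are descriptions over 9 group means of the same 18 libraries.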

How the data were processed

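RNA was extracted with Trizol and made into mRNA libraries with the Universal Plus mRNA-Seq kit. The authors trimmed reads with Trim Galore 0.6.4, aligned them with STAR 2.7.9a, counted them per gene with HTSeq 0.11.2 against NCBIM37 and divided the counts by DESeq2 size factors, per the submitters' processing notes and the study's methods. The strand setting is not given in the sources used here. The deposited values are therefore a signal proportional to reads, in 1 table for J1 and 1 for the tet-off lines, and dividing by each library's step gave whole reads for all values (tolerance 0.01).

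The members and lists were chosen with earlier results of these data known. Samples were grouped by the labels, with 2 libraries in each group. A gene needed 2 reads over its table to be tested. The test was run on log2(normalized count + 1) with limma 3.58.1 in R 4.3.3, with all groups of a table in 1 fit and Benjamini-Hochberg adjustment over all genes tested (21533 for J1, 24007 for the tet-off lines). Genes passing an adjusted p of 0.05 and a log2 difference of 0.6 (cell states) or 1 (Dox) were called. Differences between lines were tested as interaction terms with the same thresholds. The recovered reads were also tested with DESeq2 1.42.0 and with the quasi-likelihood test of edgeR 4.0.16. Further alternatives were TMM scaling, a pseudocount of 0.1, a mean of at least 10, groups fitted alone, a replicate block, the other fold threshold and leaving out each library. Named were all members, the targeted genes, genes within 250 kb of Fgf4, the 3 genes most like each member with a mean of at least 100, and, from each list, up to 4 called genes of that mean with the largest change in J1, conversion and Dox. A fold against a group at 0 used a floor of 3 reads per library, which covers counting error only.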

Additional observations from a re-analysis of the deposited data

Results flagged for a closer look

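The change of 25 member values, out of 10 members in each of 6 contrasts between cKO lines, differed by a test of the difference itself (limma interaction term, adjusted over all genes tested). For conversion, 3, 5 and 4 of the 10 members were called in the order given below, against 10.0%, 14.7% and 14.8% of all genes. For Dox, 2, 6 and 5 were called, against 6.81%, 14.8% and 11.3%. Each value below is the log2 effect in the line named first minus that in the line named second.

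For conversion from ESC to L-EPSC, Oct4-cKO minus Sox2-cKO gave 2.08 for Fgf10 (limma adjusted p = 0.042), 1.30 for Fgfr2 (5.1e-06) and −0.65 for Fgf4 (0.0002). The Fgf10 value was lost without any 1 of the 8 libraries (limma adjusted p from 0.051 to 0.17) and with a pseudocount of 0.1 (0.068). Oct4-cKO minus Nanog-cKO gave 2.95 for Fgf10 (limma adjusted p = 0.0038), −1.79 for Fgfr4 (0.00064), −1.84 for Fgf17 (0.018), −1.39 for Fgfr2 (1.6e-06) and −0.79 for Fgf4 (2e-05). Sox2-cKO minus Nanog-cKO gave −2.69 for Fgfr2 (limma adjusted p = 1.3e-09), −1.62 for Fgfr4 (0.0015), −1.67 for Fgf17 (0.03) and 1.57 for Fgf3 (0.026). By limma, Fgfr2 was the member called in opposite directions, up in the Oct4- and Nanog-cKO lines and down in the Sox2-cKO line. Fgf10 (0.96, −1.12 and −1.99 in the Oct4-, Sox2- and Nanog-cKO lines) was called in opposite directions with edgeR and DESeq2, and the signs of Fgf4 (−0.20, 0.44 and 0.58) and Fgf3 (−0.28, 0.71 and −0.85) differed too.

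For Dox, Oct4-cKO minus Sox2-cKO gave −2.38 for Fgf4 (limma adjusted p = 7.1e-11) and 1.62 for Fgf3 (0.022). Oct4-cKO minus Nanog-cKO gave −3.98 for Fgf4 (limma adjusted p = 4.6e-14), −3.44 for Fgf15 (0.0011), −2.40 for Fgf3 (0.00094), −2.26 for Fgfr3 (6.3e-05), −1.89 for Fgf10 (0.044) and −1.02 for Fgfr4 (0.025). The Fgf10 value was lost without any of 7 of the 8 libraries (limma adjusted p from 0.052 to 0.17), and the Fgfr4 value without any of 5 (0.06 to 0.1). Sox2-cKO minus Nanog-cKO gave −4.02 for Fgf3 (limma adjusted p = 7.2e-06), −3.55 for Fgf10 (0.0007), −2.91 for Fgf15 (0.005), −2.09 for Fgfr3 (0.00017) and −1.61 for Fgf4 (3.9e-09). The targeted transcript kept 3139 normalized counts in the Nanog-cKO line with Dox against 173 and 50.1 in the Oct4- and Sox2-cKO lines. These are transcript levels, and the study reports that the Nanog protein was lost with Dox. Lines, factors and the depth of transcript depletion cannot be told apart.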

How the results depend on the processing

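Of the values of single members under the alternatives that keep all libraries, 911 kept their direction and their side of the threshold, 37 came to pass it, 21 fell inside it and 2 changed sign. Counts of called members moved by more than 1.5 times as follows. Conversion in the Sox2-cKO line went from 4 to 7 with edgeR, DESeq2 and groups compared alone. Dox in the Nanog-cKO line went from 2 to 4 with edgeR, DESeq2, a mean of at least 10 and groups compared alone. The difference of conversion effects between the Oct4- and Sox2-cKO lines went from 3 to 5 with edgeR, and that of Dox effects from 2 to 4 at a threshold of 0.6 and to 1 with groups compared alone.

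Leaving out 1 library gave from 3 to 4 members between the J1 EPSC states against 6, with 3 without either L-EPSC library, and from 1 to 2 for Dox in the Nanog-cKO line, with 1 without replicate 1 of either group. The difference of conversion effects between the Sox2- and Nanog-cKO lines gave 2 to 4 against 4, with 2 without Sox2-cKO L-EPSC replicate 1, Nanog-cKO ESC replicate 1 or Nanog-cKO L-EPSC replicate 2. The difference of Dox effects between the Oct4- and Sox2-cKO lines gave 1 to 4 against 2, with 4 without Sox2-cKO L-EPSC Dox replicate 1 and 1 without replicate 2 of either untreated group. Signs changed for uncalled values only: Fgfr1 with Dox in the Sox2-cKO line (−0.0045 with edgeR, −0.0047 with TMM scaling, −0.021 to 0.027 with 1 library left out), Fgfr4 in J1 D-EPSCs against ESCs (−0.11 to 0.21), Fgf5 in J1 L-EPSCs against ESCs (−0.00999 to 0.37) and Fgf3 with Dox in the Nanog-cKO line (−0.36 to 0.076). In J1 L-EPSCs against D-EPSCs, the calls of Fgf3 and Fgf5 were each lost without any of 3 libraries (limma adjusted p up to 0.12 and 0.097).

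Counts over all genes moved by more than 1.5 times with the fold threshold. At 1 they were 2899 against 4380 (J1 L-EPSC against ESC), 1836 against 2881 (J1 L-EPSC against D-EPSC, and 1920 without D-EPSC replicate 1), 4466, 2990 and 4196 against 6822, 4713 and 6457 (conversion), and 1286, 2059 and 2199 against 2403, 3536 and 3551 (its differences). At 0.6 they were 5568 and 2386 against 3628 and 1293 (Dox, Sox2- and Nanog-cKO), and 3097, 5414 and 4383 against 1635, 3545 and 2714 (its differences).

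Replicate numbers did not pair the samples, since deviations of same-numbered libraries correlated between −0.0279 and 0.0402. A replicate block moved no count of called members by over 1.5 times. It lost 3 member calls, Fgf5 with Dox in the Sox2-cKO line (log2 difference 1.13, limma adjusted p = 0.053) and the Fgf10 differences of 2.08 (0.051) and −1.89 (0.052) given above. Values under about 10 reads (Fgf3, Fgf5, Fgf15, Fgf17 and Fgfr3 in some groups) limit what these libraries can show. The cause of these shifts was not tested.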
